A study of Mus musculus with 10 samples.

Results

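NKG2D is an activating receptor of natural killer (NK) cells and of many CD8+ T cells, and the genes described here are its receptor chain Klrk1, its signaling adaptors Hcst (DAP10) and Tyrobp (DAP12), and its ligands Raet1d, Raet1e, H60b and Ulbp1 (MULT1). These 7 genes were chosen by name, with their difference between the groups already known. Of the 7, 6 matched a row among the 36009 rows of the table, and Raet1d matched none and was not analysed here. All 6 passed the filter on low values in every tumor.

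RNA was sequenced from WEHI 164 tumors, a fibrosarcoma line of BALB/c origin that was injected under the skin of wild-type female BALB/c mice. Most of each tumor was removed by surgery, and the removed piece, which had received no treatment, was kept for RNA. A hydrogel that releases poly(I:C), a synthetic double-stranded RNA, was then applied to the tumor that remained. Mice whose tumor regressed completely gave the 5 responders (tumors 5, 9, 10, 11 and 12), and mice whose tumor growth was not delayed gave the 5 non-responders (tumors 1, 2, 3, 6 and 7). Each tumor came from a single mouse, the line is the same in both groups, and the labels give no age and no sequencing batch. The libraries held 16002949 to 31160790 estimated counts in responders and 19863863 to 28276142 in non-responders. The pieces hold cancer cells, stroma and leukocytes together, so a higher number of cells of a type and more RNA per cell cannot be told apart.

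NKG2D cannot signal by itself. In mice it pairs with DAP10, which recruits PI3-kinase and Grb2-Vav1, or, in a short form of the receptor, also with DAP12, which carries an ITAM and recruits Syk and ZAP70. Its ligands resemble MHC class I, are rare on healthy cells and appear on stressed or transformed cells, so in a tumor the receptor side is a property of leukocytes and the ligand side largely one of cancer cells. Ligand genes differ between mouse strains: the RAE-1 genes Raet1a, Raet1b and Raet1c and the H60 gene H60a are known from BALB/c mice, whereas Raet1d and Raet1e are those of C57BL/6, the strain of the GRCm38 reference.

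Raet1e and Raet1d are near copies of each other, which bears on how their counts can be read. On GRCm38 with GENCODE vM21, Raet1e is annotated on chromosome 10 from 22158569 to 22374139 on the plus strand. That interval contains H60b (22158586 to 22288849) and Raet1d (22360552 to 22374139) on the same strand, because long transcripts join their exons. Raet1e shares 363 exon bases with Raet1d and 133 with H60b. Of the 31-base words in the transcripts of Raet1e, 55.5% also occur in another gene and 49.7% occur in Raet1d. For H60b the share found in another gene is 10.3%, for Ulbp1 3.73% and for Klrk1 0.0138%, and for Hcst and Tyrobp it is 0. The first 120 bases of exon 5 in the coding sequence of Raet1e (chr10:22181125-22181244, plus strand) and of Raet1d (chr10:22371367-22371486, plus strand) show how close the copies are, with the only differing base in capitals.
Raet1e: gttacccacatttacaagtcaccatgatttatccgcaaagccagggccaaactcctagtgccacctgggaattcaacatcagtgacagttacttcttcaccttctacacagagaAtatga
Raet1d: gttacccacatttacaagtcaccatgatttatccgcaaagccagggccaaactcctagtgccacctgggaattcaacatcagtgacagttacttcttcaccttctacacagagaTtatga
Over the whole coding part of this exon, 253 of 264 bases are identical, 95.8%. A fragment from either gene, or from a BALB/c gene of the family, can therefore be assigned to Raet1e, and the estimated count of Raet1e was read as a count of RAE-1 transcripts of uncertain origin. A row named Raet1a is also in the table, although GENCODE vM21 has no gene of that name, so its value is given by name alone.

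The members split into a receptor side whose means were higher in responders and a ligand side whose means were nearly level. Values are CPM, a library-scaled count after TMM normalization, and fold changes are those of edgeR as log2 of responders over non-responders with a standard error (SE). They describe the contrast that was known when the genes were chosen, so no p is given for the members. Of the 6 members, 0 had an adjusted p under 0.05 in edgeR, DESeq2 or limma voom. In edgeR 3 had an unadjusted p under 0.05, all higher in responders, against 8.21% of the 15767 features tested and 4.20% tested and higher, and nothing is read from that count. No feature in the table passed the adjusted threshold in edgeR, while DESeq2 called 0.0254% of features and limma voom 0.

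**Figure D1:**
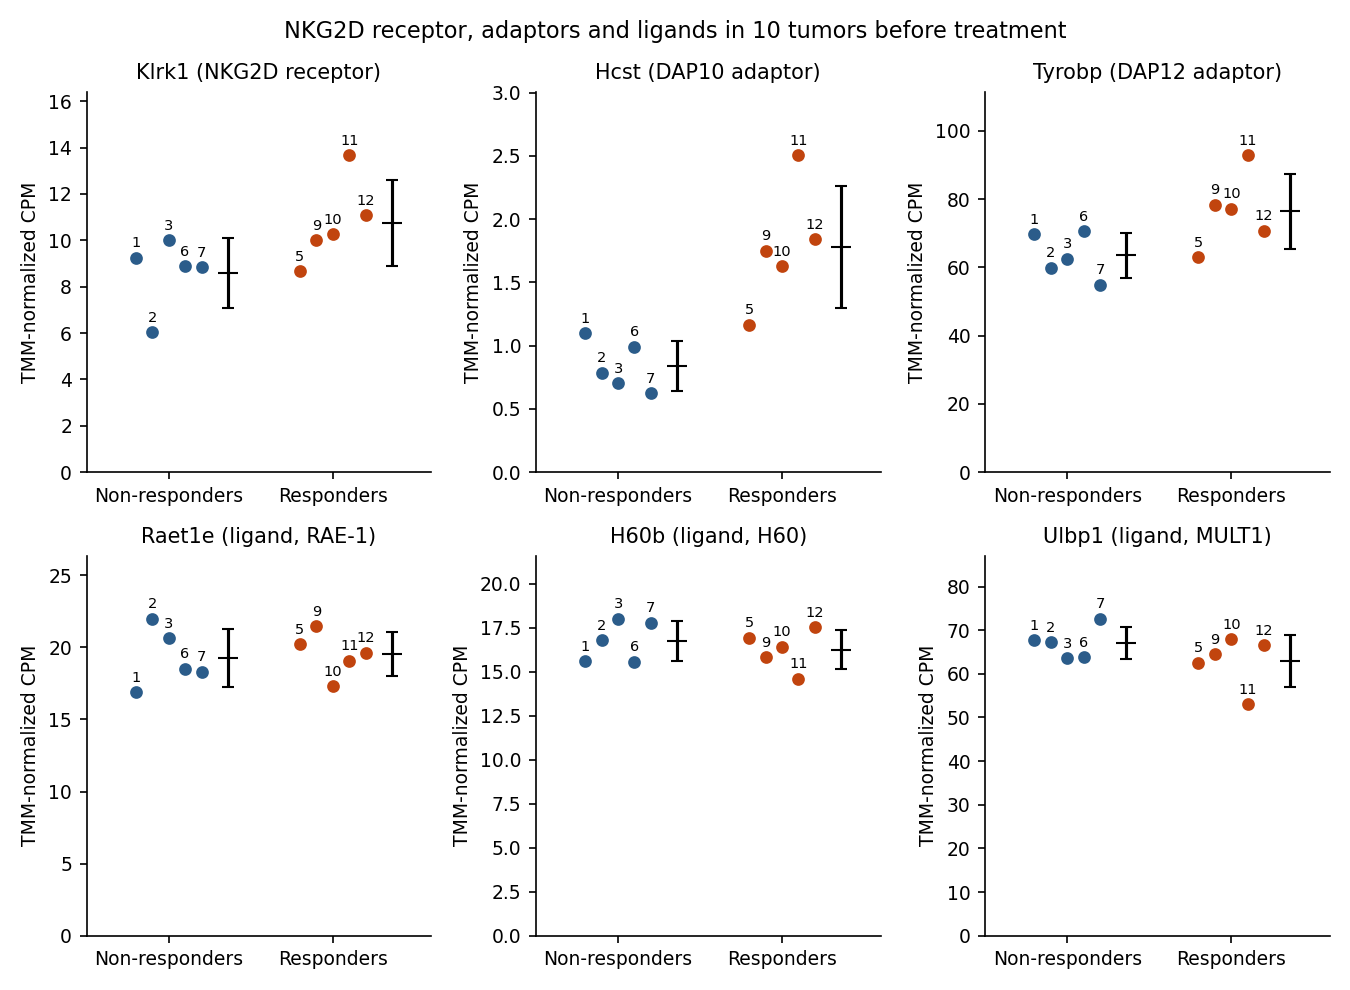
Each panel plots 1 gene, with TMM-normalized CPM on the vertical axis from 0, a point per tumor marked with its tumor number, and the mean ± SD of 5 tumors in black beside each group. Hcst is the gene whose groups do not overlap, with 1.17 to 2.50 CPM in responders and 0.626 to 1.1004 in non-responders, and the 3 ligands in the lower row sit at similar heights in both groups.

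Hcst encodes DAP10, the adaptor through which NKG2D reaches PI3-kinase. It measured 1.17, 1.75, 1.63, 2.50 and 1.84 CPM in responders 5, 9, 10, 11 and 12, and 1.1004, 0.786, 0.705, 0.993 and 0.626 CPM in non-responders 1, 2, 3, 6 and 7. All 5 responders were above all 5 non-responders, although responder 5 and non-responder 1 lay close together. The means were 1.78 ± 0.48 (SD, n = 5) and 0.842 ± 0.199 (SD, n = 5), a log2 fold change of 1.09 (SE 0.23), or 2.12-fold. Every responder was above every non-responder for 1 of the 6 members and for 0.336% of all features tested, the reverse held for 0 members and 0.590% of features, and nothing is read from that count.

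These levels of Hcst rest on few counts. The rounded counts were 28 to 77 per responder and 14 to 25 per non-responder. In responder 5 the 30 counts have an exact Poisson 95% interval of 0.786 to 1.66 CPM, and in non-responder 1 the 25 counts have one of 0.712 to 1.62 CPM, so those tumors were not distinguishable at this depth. Responder 11, with 77 counts, had an interval of 1.98 to 3.13 CPM, above the upper bound of each non-responder, which did not exceed 1.62 CPM. These intervals cover counting error only.

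Klrk1 encodes NKG2D itself and lies in the NK gene complex on chromosome 6 (129610323 to 129623864, minus strand). It measured 8.66, 10.01, 10.3, 13.7 and 11.1 CPM in responders 5, 9, 10, 11 and 12. In non-responders 1, 2, 3, 6 and 7 it measured 9.24, 6.04, 10.02, 8.89 and 8.84 CPM. Responder 11 was the highest tumor and non-responder 2 the lowest, and the groups overlapped, with 3 responders above every non-responder. The log2 fold change was 0.33 (SE 0.14), or 1.26-fold, from means of 10.7 ± 1.9 and 8.61 ± 1.51 CPM (SD, n = 5 each). Klrk1 had 160 to 420 counts per tumor.

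Tyrobp encodes DAP12, an adaptor that many receptors of macrophages, granulocytes and NK cells share. It measured 62.9, 78.3, 77.1, 92.8 and 70.7 CPM in responders 5, 9, 10, 11 and 12, and 69.7, 59.9, 62.5, 70.6 and 54.9 CPM in non-responders 1, 2, 3, 6 and 7. The groups overlapped, with 4 responders just above or well above every non-responder and responder 5 among the non-responders. The means were 76.4 ± 11.03 and 63.5 ± 6.7 CPM (SD, n = 5 in each group), and the log2 fold change was 0.27 (SE 0.10), or 1.203-fold.

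Hcst and Tyrobp are neighbors. On chromosome 7, Tyrobp runs from 30413760 to 30417585 on the plus strand and Hcst from 30417712 to 30419854 on the minus strand, so that their ends face each other with 126 bases between them. The starts of the genes are at opposite sides. The start of Hcst faces Nfkbid, a regulator of NF-κB, with 1877 bases between them. Nfkbid measured 5.02 ± 1.93 CPM in responders and 4.36 ± 1.39 in non-responders (SD, n = 5 each), with a log2 fold change of 0.22 (SE 0.27) and an adjusted p of 0.859 in edgeR.

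The 250 bases before the start of Hcst, the member with the largest log2 fold change, and before that of Klrk1, the receptor it serves, are shown as RefSeq gives them on GRCm38.p6. Searched on both strands were AGGAAGT, letters that ETS factors such as ETS1 and PU.1 are known to bind, and TGTGGT, the core of RUNX sites. Neither motif overlaps the other, and matches are in capitals.
Hcst (chr7:30419855-30420104, minus strand): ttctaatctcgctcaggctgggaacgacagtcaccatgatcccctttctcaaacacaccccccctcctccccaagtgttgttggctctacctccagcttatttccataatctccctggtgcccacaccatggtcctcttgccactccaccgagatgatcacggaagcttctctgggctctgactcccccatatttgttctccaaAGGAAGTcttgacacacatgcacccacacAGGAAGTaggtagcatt
Klrk1 (chr6:129623865-129624114, minus strand): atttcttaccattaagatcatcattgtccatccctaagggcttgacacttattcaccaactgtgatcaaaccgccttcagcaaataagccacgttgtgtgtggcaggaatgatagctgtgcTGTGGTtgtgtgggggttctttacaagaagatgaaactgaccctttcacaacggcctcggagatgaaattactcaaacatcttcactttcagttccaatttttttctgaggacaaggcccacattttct
The Hcst window holds AGGAAGT at 2 places and no TGTGGT, and the Klrk1 window holds TGTGGT at 1 place and no AGGAAGT. Among ligand windows, not shown, that of Ulbp1 holds AGGAAGT at 1 place, on the other strand. Those of Raet1e, Raet1d and H60c hold neither motif. Of 32851 promoter windows of this length, 7.69% hold AGGAAGT and 14.0% hold TGTGGT on either strand. The letters were chosen after the sequences had been read, and a match describes the sequence and not a site in use.

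The ligand genes were close to level between the groups. Ulbp1, the gene of the ligand MULT1, lies on chromosome 10 from 7440362 to 7473638 on the minus strand. It measured 62.6, 64.5, 67.9, 53.02 and 66.6 CPM in responders 5, 9, 10, 11 and 12, and 67.7, 67.3, 63.6, 63.9 and 72.6 CPM in non-responders 1, 2, 3, 6 and 7. Responder 11 was the lowest tumor, and the other values overlapped. The log2 fold change was -0.09 (SE 0.07).

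H60b, a ligand of the H60 family, measured 16.9, 15.8, 16.4, 14.6 and 17.5 CPM in responders 5, 9, 10, 11 and 12. It measured 15.6, 16.8, 18.02, 15.6 and 17.8 CPM in non-responders 1, 2, 3, 6 and 7. The groups overlapped almost entirely, with responder 11 again the lowest. The log2 fold change was -0.04 (SE 0.07).

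Raet1e measured 20.2, 21.5, 17.3, 19.1 and 19.6 CPM in responders 5, 9, 10, 11 and 12, and 16.9, 21.98, 20.6, 18.5 and 18.3 CPM in non-responders 1, 2, 3, 6 and 7. Its log2 fold change was 0.02 (SE 0.08), and its lowest and highest tumors were both non-responders. The coefficient of variation within a group was 5.44% to 10.5% for the 3 ligands and 10.5% to 27.1% for Klrk1, Hcst and Tyrobp. The ranges meet, and the highest value is that of Hcst, with 14 to 77 counts. These values include counting error as well as variation between tumors.

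Of the 5 other ligand genes listed, Raet1a and H60c matched a row and Raet1b, Raet1c and H60a were not analysed here. Neither of the matched genes passed the adjusted threshold. The Raet1a row measured 15.8 ± 1.6 CPM in responders and 14.4 ± 1.5 in non-responders (SD, n = 5 each), with a log2 fold change of 0.14 (SE 0.09) and an adjusted p of 0.713 in edgeR. H60c, an H60 gene known from skin, measured 4.88 ± 0.91 and 4.99 ± 0.60 CPM (SD, n = 5 each), with a log2 fold change of -0.04 (SE 0.15) and an adjusted p of 0.961 in edgeR. Summed over the 5 ligand rows, which does not depend on how reads are split among them, the level was 119 ± 7 CPM in responders and 122 ± 5 in non-responders (SD, n = 5 each). All 10 tumors lay between 107 and 127 CPM.

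Levels of different genes were compared per length, as CPM per kb of merged exons over all 10 tumors. Tyrobp had the highest level, at 105 ± 16 CPM per kb (SD, n = 10). The ligands followed, with H60b at 13.6 ± 0.9, Ulbp1 at 9.66 ± 0.76 and Raet1e at 8.99 ± 0.78 CPM per kb (SD, n = 10 each). Hcst at 1.81 ± 0.84, H60c at 1.75 ± 0.26 and Klrk1 at 1.35 ± 0.27 CPM per kb (SD, n = 10 each) were lowest, and their order depended on the group. In responders Hcst was highest of the 3 at 2.46 ± 0.67, against 1.73 ± 0.32 for H60c and 1.49 ± 0.26 for Klrk1, and in non-responders H60c was highest at 1.77 ± 0.21, above Hcst at 1.17 ± 0.28 in all 5 tumors and above Klrk1 at 1.198 ± 0.210 CPM per kb (SD, n = 5 each). Ulbp1 and Raet1e did not differ beyond their spread, with Raet1e above Ulbp1 in 5 of 10 tumors. H60b was above Ulbp1 and above Raet1e in all 10 tumors. Whether the H60b row holds fragments of a BALB/c H60 gene was not tested. The order at the low end also depended on the length used: per kb of the longest transcript, H60c stayed at 1.75 ± 0.26 while Klrk1 came to 2.97 ± 0.60 and Hcst to 2.96 ± 1.37 CPM per kb (SD, n = 10 each).

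**Figure D2:**
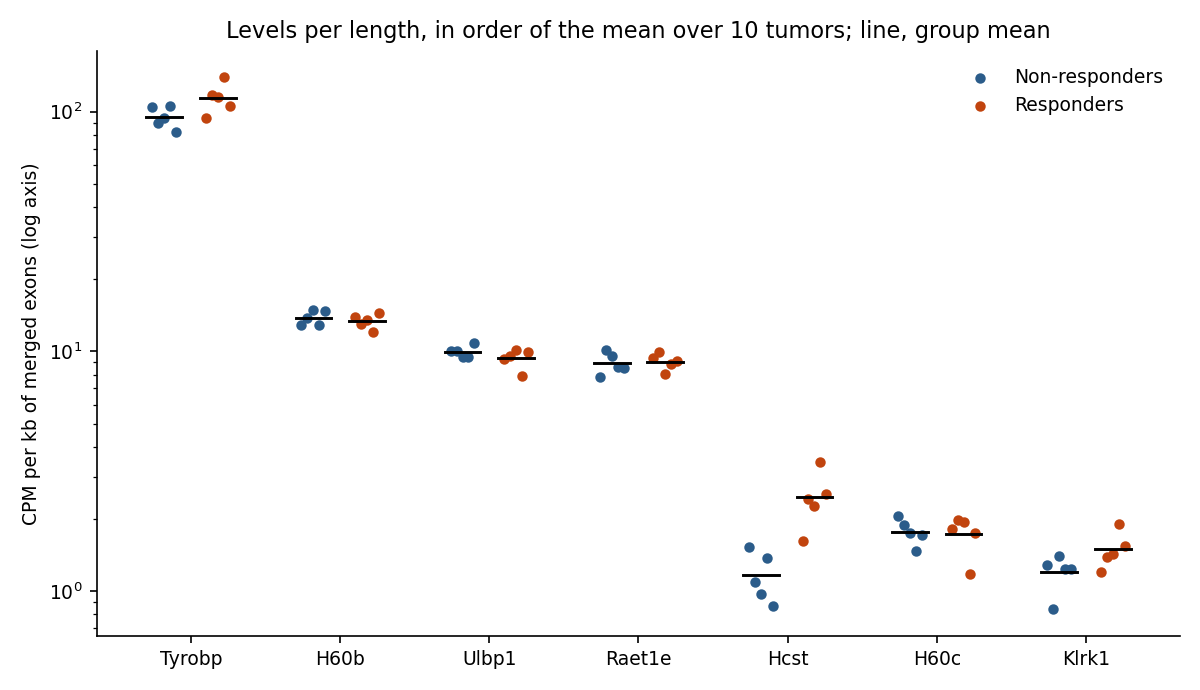
Levels per length of 7 genes, as CPM per kb of merged exons on a log axis, with a point per tumor, non-responders on the left and responders on the right of each gene, and a line at the group mean. Tyrobp lies far above the ligands, at 105 CPM per kb, and Hcst, H60c and Klrk1 are lowest, at 1.81, 1.75 and 1.35 over all 10 tumors, with Hcst above H60c in the mean of responders and below it in that of non-responders.

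The adaptors of NKG2D were at very unlike levels per length. The level of Tyrobp was 40.1 to 96.0 times that of Hcst in single tumors, with a median of 63.5. This ratio was 48.0 ± 7.5 in responders and 83.8 ± 11.8 in non-responders (SD, n = 5 each). The level of Klrk1 over that of Hcst was 0.622 ± 0.077 in responders and 1.07 ± 0.32 in non-responders (SD, n = 5 each), and it exceeded 1 in 2 tumors. The choice of length moves these ratios: with the longest transcript in place of merged exons the median of Tyrobp over Hcst was 43.4, and Klrk1 exceeded Hcst in 6 tumors.

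Within the groups, Klrk1, Hcst and Tyrobp were set against the content of leukocyte genes. For each tumor the mean log2(CPM + 1) of 16 NK cell, 11 T cell and 15 macrophage and monocyte markers was taken as a score. Group means were removed from scores and genes, so that the known difference between the groups did not enter. All 9 relations had a positive Pearson r with an adjusted permutation p under 0.05 (100000 resamples, two-sided, Benjamini-Hochberg over 9). For Spearman's rho 7 of the 9 did. The share of all features with such an r was not computed, so the counts are not read as particular to these genes. Without the 2 tumors farthest from the median of each score, 5 of the 9 passed by r, none of them of Klrk1, and 0 by rho.

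**Figure D3:**
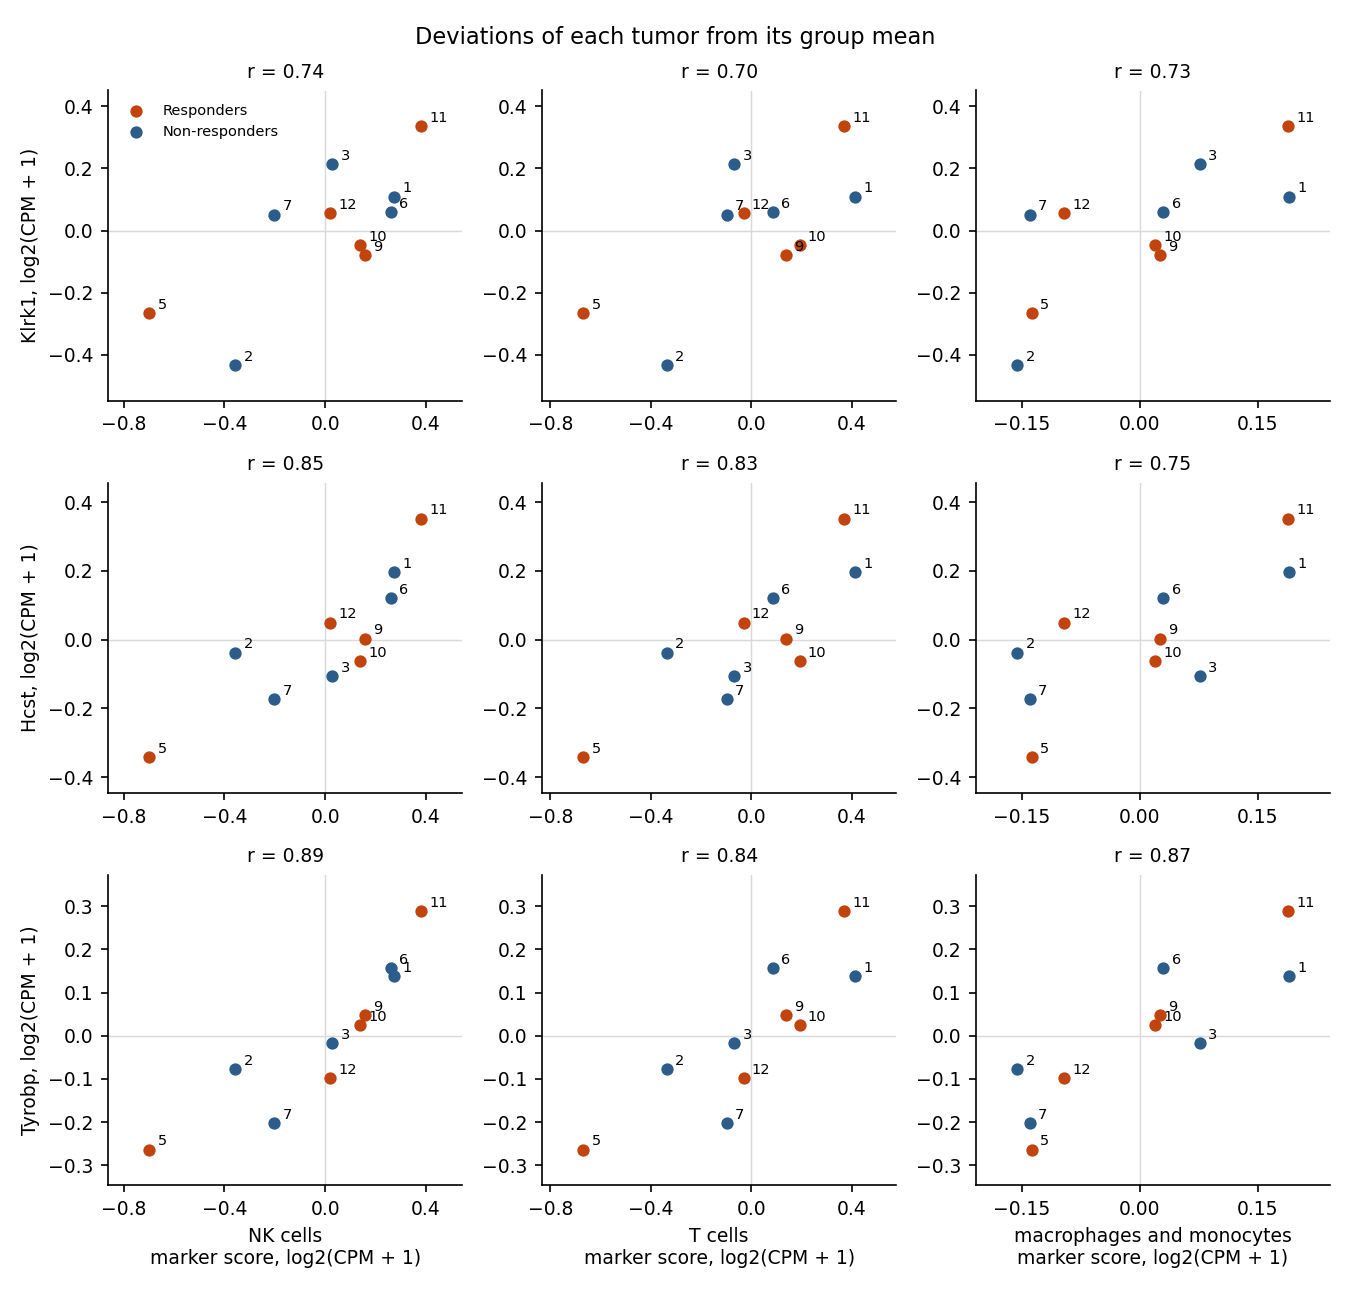
Deviation of each tumor from its group mean, with the marker score on the horizontal axis and Klrk1, Hcst or Tyrobp on the vertical axis, all in log2(CPM + 1), and tumor numbers beside the points. Every panel slopes upward, with Pearson's r from 0.703 for Klrk1 and T cell markers to 0.892 for Tyrobp and NK cell markers, and responder 11 is the highest point on the vertical axis in all 9 panels.

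The highest r was that of Tyrobp with the NK cell score, at r = 0.892 (permutation p = 0.00031, adjusted p = 0.0028) and rho = 0.952 (permutation p = 0.00011, adjusted p = 0.00099). With the macrophage and monocyte score its r was 0.872 (permutation p = 0.0013, adjusted p = 0.0045) and rho 0.794 (permutation p = 0.0091, adjusted p = 0.016). With the T cell score its r was 0.842 (permutation p = 0.0021, adjusted p = 0.0046) and rho 0.830 (permutation p = 0.0047, adjusted p = 0.013). The lead of the NK cell score over the macrophage and monocyte score turned without non-responder 1, 3 or 6. There r was 0.881, 0.894 and 0.882 against 0.884, 0.902 and 0.901. With the 2 tumors farthest from the median of each score left out, r was 0.907, 0.843 and 0.813 for NK cell, macrophage and monocyte, and T cell markers (exact permutation p = 0.0031, 0.0070 and 0.015, n = 8). The 3 relations of Tyrobp held without those tumors by r but not by rho, which was 0.810, 0.690 and 0.738 (adjusted exact permutation p = 0.196, 0.208 and 0.206, n = 8).

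Hcst had r = 0.852 with the NK cell score (permutation p = 0.0015, adjusted p = 0.0045; rho = 0.830, permutation p = 0.0047, adjusted p = 0.013). With the T cell score r was 0.832 (permutation p = 0.0032, adjusted p = 0.0058; rho = 0.770, permutation p = 0.012, adjusted p = 0.018). With the macrophage and monocyte score r was 0.748 (permutation p = 0.012, adjusted p = 0.018; rho = 0.648, permutation p = 0.049, adjusted p = 0.055). Without the 2 farthest tumors, r was 0.898 and 0.786 with NK cell and T cell markers (exact permutation p = 0.0029 and 0.023, n = 8), but rho was 0.619 and 0.571 and did not pass (adjusted exact permutation p = 0.227 for each). With macrophage and monocyte markers it was 0.671 (exact permutation p = 0.071, n = 8), and the relation did not hold. It also missed the adjusted threshold without responder 11 alone, at r = 0.617 (adjusted exact permutation p = 0.079, n = 9).

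Klrk1, the receptor, had the lowest r with each of the scores over all 10 tumors with group means removed. With the macrophage and monocyte score Hcst was lower without responder 9 or 11 or non-responder 1 or 7. Without non-responder 7 Hcst was at 0.712 and Klrk1 at 0.843. With group means kept, Hcst was also lower there (0.776 and 0.809) and with the T cell score (0.714 and 0.741). By rho Klrk1 was highest with the macrophage and monocyte score. Its r was 0.740 with the NK cell score (permutation p = 0.016, adjusted p = 0.018; rho = 0.709, permutation p = 0.027, adjusted p = 0.034). It was 0.734 with the macrophage and monocyte score (permutation p = 0.014, adjusted p = 0.018; rho = 0.818, permutation p = 0.0056, adjusted p = 0.013). With the T cell score r was 0.703 (permutation p = 0.025, adjusted p = 0.025; rho = 0.576, permutation p = 0.089, adjusted p = 0.089). Without the 2 farthest tumors these fell to 0.643, 0.369 and 0.301 (exact permutation p = 0.095, 0.37 and 0.48, n = 8). Each relation of Klrk1 also missed the adjusted threshold without responder 11 alone or non-responder 2 alone, and the T cell one without responder 5 alone.

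The members were also set against each other in the same way, in 15 pairs, an addition made after the data were seen. Hcst and Tyrobp had r = 0.915 (permutation p = 0.00041, adjusted p = 0.0061) and rho = 0.830 (permutation p = 0.0046, adjusted p = 0.037). Without responders 11 and 12, r was 0.950 (exact permutation p = 0.0011, n = 8). H60b went the other way from Tyrobp, with r = -0.852 (permutation p = 0.0021, adjusted p = 0.016) and rho = -0.830 (permutation p = 0.0049, adjusted p = 0.037), but without responder 11 and non-responder 7 r was -0.691 (exact permutation p = 0.064, n = 8). H60b and Hcst had r = -0.775 (permutation p = 0.0073, adjusted p = 0.037) and rho = -0.685 (permutation p = 0.035, adjusted p = 0.17), and r = -0.883 without responders 11 and 12 (exact permutation p = 0.0063, n = 8). No other pair had an adjusted p under 0.05.

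The genes whose deviations from the group means were most like those of each member were named from 13060 genes, over the 10 tumors and with no test. For Tyrobp they were Ncf4 (r = 0.971), a subunit of the phagocyte oxidase, Igsf6 (0.967), Fcer1g (0.964), the Fc receptor gamma chain and another ITAM adaptor, Ifnar2 (0.960), a chain of the type I interferon receptor, and Ctsz (0.956), a lysosomal protease. For Hcst they were Bcl2a1b (r = 0.972) and Bcl2a1d (0.958), survival genes that are close copies of each other and may share reads, Vdac2 (0.968), Ggct (0.955) and Tubb6 (0.955). For Klrk1 they were Lilra6 (r = 0.960), Mmp25 (0.944), Trappc14 (0.939), Pla1a (0.938) and Gpr171 (0.933). No NK cell marker from the list is among these 15 genes.

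The genes that carry the signal inside the cell were listed by adaptor. Of the 18 genes listed for DAP10 signaling, 6 had a higher and 12 a lower mean in responders, with a median log2 fold change of -0.02 against -0.0036 over all features, and 0 had an adjusted p under 0.05 in edgeR. By unadjusted p, 1 was under 0.05 and higher and 2 were under 0.05 and lower, beside 663 (4.20%) and 631 of the 15767 features tested, which came to 2 higher and 3 lower without responder 5, and to 0 lower without responder 9, 11 or 12 or non-responder 2, 3 or 6. Jak3, the kinase that joins the IL-15 receptor to NKG2D signaling, measured 78.1 ± 7.2 CPM in responders and 64.3 ± 6.8 in non-responders (SD, n = 5 each), with a log2 fold change of 0.28 (SE 0.08) and an adjusted p of 0.580 in edgeR. The PI3-kinase subunit Pik3r2 was at -0.17 (SE 0.07) and the phospholipase Plcg2 at -0.15 (SE 0.07). The most abundant genes of the list, Rac1 at -0.02 (SE 0.05) and Akt1 at -0.06 (SE 0.06), are used by most cells.

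Of the 18 genes listed for DAP12 signaling, 14 had a higher and 4 a lower mean in responders, with a median log2 fold change of 0.09, and 0 had an adjusted p under 0.05 in edgeR. By unadjusted p 3 were under 0.05, all higher, beside 4.20% of all features, and leaving out single tumors gave 1 (without responder 11 or non-responder 7) to 5 (without non-responder 1), where the higher features under 0.05 went from 663 to 452, 426 and 899. The median was 0.16 without non-responder 3. These were Zap70, a kinase of T and NK cells, at 0.83 (SE 0.32), Lck, a kinase of T cells, at 0.56 (SE 0.22), and Malt1, a protease, at 0.45 (SE 0.14). Malt1 measured 29.7, 47.6, 41.4, 49.6 and 44.8 CPM in responders 5, 9, 10, 11 and 12 and 26.6 to 40.7 CPM in non-responders, so that 4 responders were above every non-responder. The ubiquitin ligase Cbl was at 0.07 (SE 0.06) and the phosphatase Ptpn11 at -0.03 (SE 0.05), and both are widely expressed.

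DAP12 and DAP10 also serve other receptors, and 18 of 21 listed passed the filter. Of these 15 had a higher and 3 a lower mean in responders, with a median log2 fold change of 0.18, and 0 had an adjusted p under 0.05 in edgeR. By unadjusted p 4 were under 0.05, all higher, beside 4.20% of all features, a count that ran from 1 (without responder 9 or 11 or non-responder 2 or 7) to 7 (without responder 5). Over all features the higher ones ran from 663 to 497, 452, 552 and 426 and to 1074 without these tumors. The median was 0.31 without responder 5 and 0.11 without responder 10 or 11. They were Klrc2, the NK cell receptor NKG2C, at 1.09 (SE 0.48), its partner Klrd1 (CD94) at 0.75 (SE 0.35), and the myeloid receptors Cd200r3 at 0.68 (SE 0.25) and Cd200r4 at 0.37 (SE 0.16). Klrd1 was named after its value was seen. The most abundant receptors of the list, Cd300lb at 29.5 ± 6.6 and 27.2 ± 2.8 CPM and Trem2 at 20.9 ± 1.9 and 20.5 ± 1.3 CPM in responders and non-responders (SD, n = 5 each), are those of macrophages and other myeloid cells. Siglec15 and Klra4 had at most 6 and 4 counts in any tumor, and Klra8 had 0 in all.

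**Figure D4:**
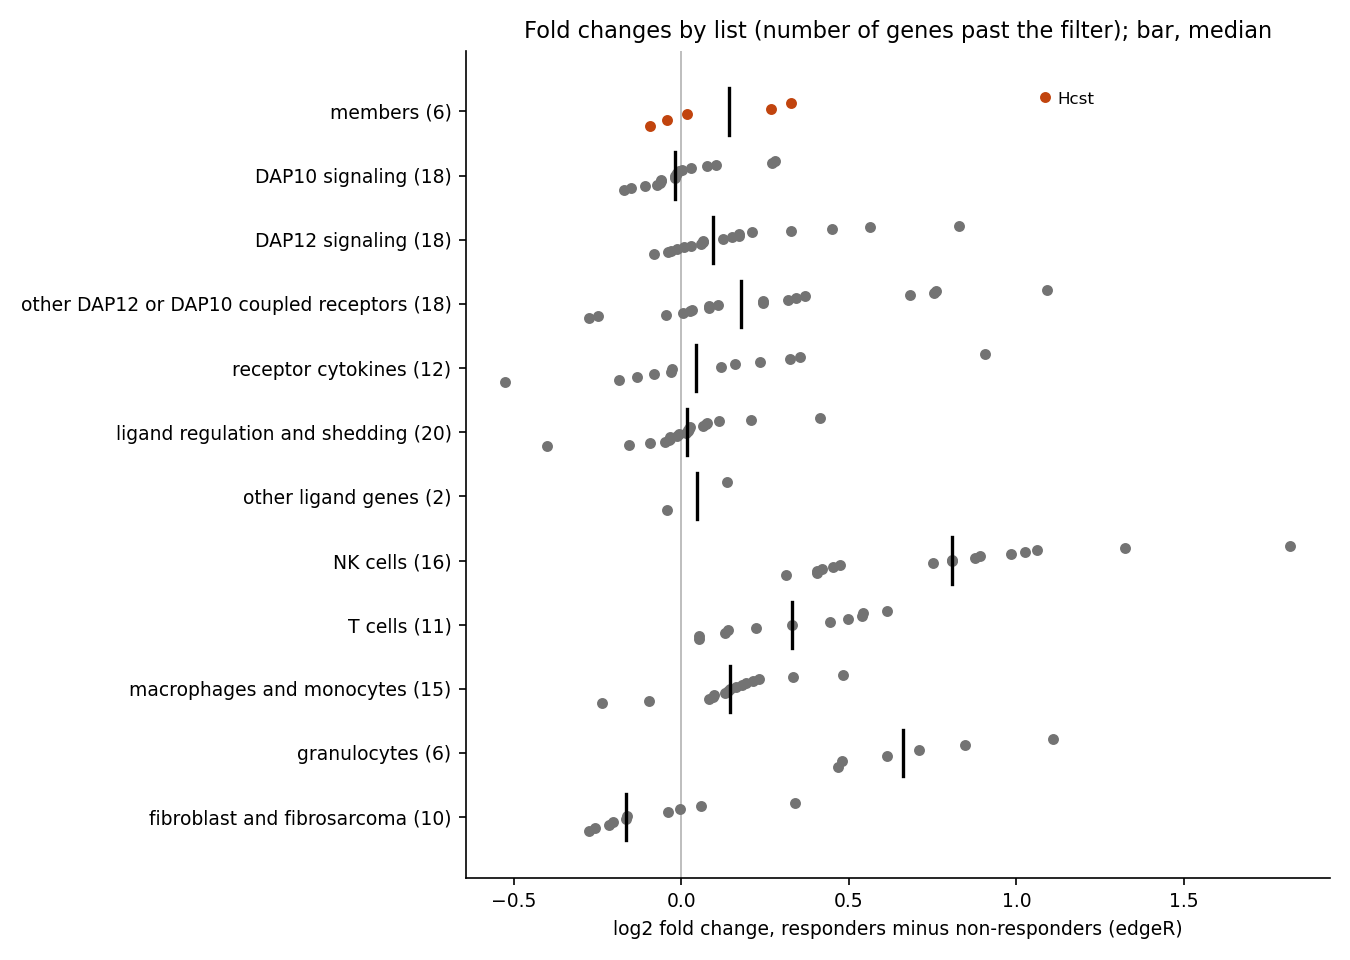
Log2 fold change of responders minus non-responders from edgeR on the horizontal axis for the members and for 11 lists, with a point per gene past the filter, the number of genes in brackets and a black bar at the median. The NK cell markers lie furthest to the right, with a median of 0.81, and the members spread from -0.09 for Ulbp1 to 1.09 for Hcst.

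Cytokines that raise or lower the receptor were mixed. IL-15 and IL-2 act through Il2rb and Il2rg to raise NKG2D and DAP10, and TGF-β lowers them. Of 14 genes listed 12 passed the filter, 6 with a higher and 6 with a lower mean in responders, and 0 had an adjusted p under 0.05 in edgeR. By unadjusted p 3 were under 0.05 and higher and 2 under 0.05 and lower, beside 663 (4.20%) and 631 of the 15767 features tested, and without responder 9 or 11 or non-responder 2 this came to 1 and 0. Il2rb, a chain that NK and T cells carry, measured 42.2 ± 18.5 CPM in responders and 22.6 ± 7.0 in non-responders (SD, n = 5 each), with a log2 fold change of 0.91 (SE 0.30). Il2rg was at 0.35 (SE 0.14). The TGF-β receptor Tgfbr2 was at -0.19 (SE 0.07). Mif, a cytokine that many cells make and the most abundant gene of the list, was at 0.12 (SE 0.07).

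Genes that regulate or shed the ligands were counted in the same way. Of 20 listed, 11 had a higher and 9 a lower mean in responders, with a median log2 fold change of 0.02, and 0 had an adjusted p under 0.05 in edgeR. By unadjusted p 1 was under 0.05, and higher, beside 663 (4.20%) of the 15767 features tested. Without non-responder 1 this came to 2 higher, and without responder 5 or non-responder 7 to 1 higher and 1 lower. Over all features these fits gave 899 higher, 1074 higher and 1065 lower, and 426 higher and 506 lower. The gene was Adam17, a protease that cuts surface proteins. It measured 123 ± 11 CPM in responders and 107 ± 8 in non-responders (SD, n = 5 each). Its log2 fold change was 0.21 (SE 0.07, adjusted p = 0.580 in edgeR). Other enzymes of this kind, Mmp14 at -0.16 (SE 0.09) and Adam9 at 0.07 (SE 0.04), and the disulfide isomerase Pdia6 at 0.07 (SE 0.07), had larger p.

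Leukocyte markers were counted list by list. All 16 NK cell markers that passed the filter had a higher mean in responders, with a median log2 fold change of 0.81, and 0 had an adjusted p under 0.05 in edgeR. By unadjusted p 11 were under 0.05, which came to 6 without responder 11 and 15 without responder 5. Over all features, 48.6% had a higher mean in responders and 8.21%, or 1294, had an unadjusted p under 0.05, which came to 839 and 2139 without those tumors. Gzma (granzyme A) at 1.82 (SE 0.57) and Prf1 (perforin) at 1.32 (SE 0.38), the proteins of cytotoxic granules, each had an adjusted p of 0.580 in edgeR. Eomes, a transcription factor, was at 0.98 (SE 0.29) and Xcl1, a chemokine, at 0.81 (SE 0.17). These genes were named by p or level, and none of them is confined to NK cells. Xcl1 is the 1 of 16 markers whose groups did not overlap, with 1.78 to 2.31 CPM in responders and 0.965 to 1.49 in non-responders. Every responder was above every non-responder for 0.336% of all features.

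The summed level of the 17 NK cell markers found was 51.3, 152, 161, 250 and 152 CPM in responders 5, 9, 10, 11 and 12. In non-responders 1, 2, 3, 6 and 7 it was 93.1, 43.1, 65.1, 92.3 and 47.7 CPM. Responder 5 lay among the non-responders and responder 11 was highest, the same tumors that were lowest and highest among responders for Klrk1, Hcst and Tyrobp. Gzma was the most abundant marker, at 36.1 CPM over all tumors, and no NK cell marker was at 0 in every tumor. Gzma and Prf1 were at 112 and 66.8 CPM in responder 11 and at 8.04 and 11.7 CPM in responder 5. These granule genes weigh heavily in the sum, and they are not confined to NK cells. The part of NK cell content in the differences of Klrk1, Hcst and Tyrobp between the groups was not tested.

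For T cells, all 11 markers past the filter had a higher mean in responders, with a median log2 fold change of 0.33, and 0 had an adjusted p under 0.05 in edgeR. By unadjusted p 0 were under 0.05, against 6 without responder 5 and 3 without non-responder 1, where the count over all features went from 1294 to 2139 and 1534. The median fell to 0.18 without responder 11 and came to 0.55 without responder 5, and 9 of the 11 had a higher mean without responder 11 or non-responder 2. Cd4 was at 0.61 (SE 0.31), Cd28 at 0.54 (SE 0.29) and Cd5 at 0.50 (SE 0.28), whereas Trbc2, a constant part of the T cell receptor and the most abundant marker at 16.1 CPM, was at 0.05 (SE 0.08). The summed level of the 11 markers was 34.3, 61.4, 63.9, 71.7 and 50.8 CPM in responders 5, 9, 10, 11 and 12, and 61.2, 37.3, 44.4, 47.8 and 41.9 CPM in non-responders 1, 2, 3, 6 and 7. Responder 5 was the lowest of all tumors.

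For macrophages and monocytes, 13 of 15 markers had a higher mean in responders, with a median log2 fold change of 0.15, and 0 had an adjusted p under 0.05 in edgeR. By unadjusted p 1 was higher, Ly6c2 of inflammatory monocytes at 0.48 (SE 0.13), and 1 was lower, the chemokine receptor Ccr2 at -0.23 (SE 0.11), against 6 higher without responder 5 and 5 higher without non-responder 1, where the higher features under 0.05 went from 663 (4.20% of all) to 1074 and 899. By that measure 0 were lower in 8 of the 10 fits that each left out 1 tumor, all but those without non-responder 1 or 2, and the median was 0.09 without responder 11. The summed level was 3434 ± 420 CPM in responders and 3079 ± 371 in non-responders (SD, n = 5 each). Lyz2 (lysozyme), the most abundant at 984 CPM, was at 0.10 (SE 0.12), Ctss (cathepsin S) at 0.33 (SE 0.17) and Csf1r at 0.15 (SE 0.07). All 6 granulocyte markers past the filter had a higher mean in responders, with a median of 0.66. The summed level of the 8 found was 35.5 ± 13.0 and 23.2 ± 6.8 CPM (SD, n = 5 each). Csf3r at 0.61 (SE 0.23), S100a9 at 0.85 (SE 0.39) and Retnlg at 1.11 (SE 0.54) led the granulocyte markers by p. By unadjusted p 1 was under 0.05, and higher. This came to 0 without responder 11 or non-responder 2, and to 3, 4 and 5 without responder 9, responder 5 and non-responder 1. Over all features the higher ones went from 663 to 452, 552, 497, 1074 and 899 without these tumors. The part of macrophages, monocytes and granulocytes in the level of Tyrobp was not tested.

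The labelled tissue was checked against its markers. Of 10 fibroblast and fibrosarcoma markers 2 had a higher and 8 a lower mean in responders, and 0 had an adjusted p under 0.05 in edgeR. Vim, the most abundant at 4764 CPM, was at 0.06 (SE 0.07), while the collagens Col1a1 at -0.28 (SE 0.08) and Col3a1 at -0.20 (SE 0.07) and fibronectin Fn1 at -0.26 (SE 0.12) had lower means in responders. Genes of other tissues were present at lower levels. The 6 skeletal muscle markers summed to 116 ± 50 CPM in responders and 155 ± 45 in non-responders (SD, n = 5 each), with Acta1 most abundant at 57.4 CPM and at -0.22 (SE 0.30), Ckm at -0.75 (SE 0.31), Myh4 at -0.86 (SE 0.40) and Tnnt3 at -0.29 (SE 0.22). The 6 adipocyte markers summed to 27.0 ± 8.5 and 31.6 ± 13.2 CPM (SD, n = 5 each), with Fabp4 at -0.08 (SE 0.19), Lep at -1.79 (SE 0.67), Cfd at -0.80 (SE 0.62) and Cidec at -0.59 (SE 0.54).

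Keratinocyte markers summed to 23.4 ± 2.2 CPM in responders and 21.96 ± 0.79 in non-responders (SD, n = 5 each), of which Dsp, at 13.8 CPM, was the most abundant. The epidermal keratins Krt5 and Krt14 had at most 6 and 7 counts in any tumor and Krt1 had 0. Of the markers that passed, Dsp at -0.03 (SE 0.09), Sfn at 0.16 (SE 0.15) and Krt10 at 0.01 (SE 0.15) were close to level, and Trp63 was at 0.79 (SE 0.24; adjusted p = 0.580 in edgeR). B cell markers summed to 2.38 ± 0.66 and 2.45 ± 0.35 CPM in responders and non-responders (SD, n = 5 each), with Cd79a at -0.53 (SE 0.25), Cd79b at 0.38 (SE 0.29) and Pax5 at 0.13 (SE 0.37). Dendritic cell markers summed to 21.7 ± 3.2 and 19.97 ± 3.90 CPM (SD, n = 5 each), with Batf3 at 0.60 (SE 0.23), Itgae at 0.17 (SE 0.18), Cd209a at 0.30 (SE 0.54) and Ccr7 at -0.01 (SE 0.20). Over all lists, 174 genes besides the members passed the filter, and 0 had an adjusted p under 0.05 in edgeR. Of the 174, 37 had an unadjusted p under 0.05, 27 higher and 10 lower in responders. Over all features 8.21% did, 663 higher and 631 lower, a total that ran from 839 without responder 11 to 2139 without responder 5. The count over the lists moved as well, with NK cell markers alone going from 11 to 6 and 15 in those fits.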

How the data were processed

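PolyA RNA of 10 tumor pieces was sequenced as paired reads on an Illumina instrument. Per the study's methods, the authors checked the reads with FastQC, ran Kallisto for transcript abundances and used tximport to collapse these onto genes of mm10 (GRCm38 in the submitters' processing notes); the annotation release is not given in the sources used here. The table deposited holds estimated counts, not normalized for depth or length. Of 36009 rows, 9580 carry no gene name and were kept as separate features, and rows of the 44 names found on more than 1 row were summed. Counts were rounded. No pair of tumors agreed within sampling noise: over 45 pairs the chi-square per gene was at least 4.87. Each tumor is from its own mouse, so the spread between tumors includes that between mice.

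The filter required CPM over 0.366 in 3 or more tumors and left 15767 features. Responders were compared with non-responders after TMM normalization with the quasi-likelihood test of edgeR 4.0.16 under R 4.3.3. P-values were adjusted over all features by Benjamini-Hochberg, with a threshold of 0.05. Alternatives were the Wald test of DESeq2 1.42.0 and voom of limma 3.58.1. The biological coefficient of variation was 10.4%. On simulated counts drawn from the real means for this comparison, over 15583 genes, the edgeR steps called 186 of 200 changed genes, all with the right direction, recovering 99% at 4-fold and 87% at 2-fold, with 13 false calls. With nothing changed 0 were called. The changed genes were drawn only from those above a minimum mean count. With 200 true changes the adjusted threshold is easier to reach than with few. The shares recovered are therefore not the probability that a 2-fold difference in the real data was called. Marker scores are means of log2(CPM + 1), and correlations used 100000 permutations or, with fewer than 10 tumors, all of them. Exact refers only to the use of all permutations. Where group means were removed, the deviations were permuted across both groups, although centering ties them within a group. Those permutation p are therefore approximate and can be too small. Gene positions, lengths and 31-base words are from GENCODE vM21 on GRCm38, promoters from RefSeq on GRCm38.p6. Promoter sequences were matched by symbol. Python 3.11.15 was used.

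The members, the gene lists and the tests were chosen with earlier results of these data known. Named were the members, the other ligand genes, of each list the 3 genes with the smallest unadjusted p and the 2 with the highest mean CPM, the 5 genes most like Klrk1, Hcst and Tyrobp each (mean CPM of at least 1), and neighboring genes. The alternatives were other normalizations, filters, pseudocounts, tests and lengths, rows of one name kept separate, and leaving out each tumor in turn.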

Additional observations from a re-analysis of the deposited data

How the results depend on the processing

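In edgeR 0 features passed the adjusted threshold with all 10 tumors, as with DESeq2's size factors, library size only, filterByExpr, no filter, rows kept separate and limma voom, where 1294 had an unadjusted p under 0.05 in the fit reported. The DESeq2 test called 4 features, none of them in a list, and leaving out single tumors gave 0 to 9 calls, with 9 without responder 5 and 0 in each of the others. Genes called in the lists stayed at 0 throughout, and the features with an unadjusted p under 0.05 ran from 839 without responder 11 to 2139 without responder 5. The log2 fold change of Hcst was 1.07 to 1.09 under the 7 other fits and 0.92 to 1.21 when single tumors were left out, that of Klrk1 0.33 to 0.37 and 0.22 to 0.40, and that of Tyrobp 0.26 to 0.27 and 0.19 to 0.33. Raet1e ran from -0.03 to 0.07 when single tumors were left out, so its sign is not settled. H60b ran from -0.07 to -0.0014 and Ulbp1 from -0.12 to -0.03, each nearest to 0 without responder 11. H60b, at -0.04 (SE 0.07) with all 10 tumors, has no settled sign either. With the 2 tumors farthest from the median of each score left out, r was 0.643, 0.301 and 0.369 for Klrk1 with NK cell, T cell and macrophage and monocyte markers and 0.671 for Hcst with macrophage and monocyte markers, and these no longer passed the adjusted threshold. Leaving out single tumors gave Klrk1 an r of 0.668 to 0.783 with NK cell markers, 0.620 to 0.785 with T cell markers and 0.618 to 0.843 with macrophage and monocyte markers, and Hcst one of 0.617 to 0.829 with macrophage and monocyte markers. The adjusted threshold was missed for Klrk1 with all 3 scores without responder 11 or non-responder 2, for its T cell relation also without responder 5, and for Hcst with macrophage and monocyte markers without responder 11. The other relations kept their side of the threshold by Pearson's r under all alternatives run. By Spearman's rho, 7 of the 9 relations passed with all 10 tumors, 4 to 9 when single tumors were left out and 0 without the 2 farthest, and without responder 5 and without non-responder 1 the adjusted permutation p of Hcst was 0.121 and 0.098 with NK cell and 0.148 and 0.213 with T cell markers. With the longest transcript as length the levels were 2.97 for Klrk1, 2.96 for Hcst, 12.3 for Raet1e, 15.3 for H60b and 10.9 CPM per kb for Ulbp1, with H60c at 1.75, then lowest, and merging exons counts as many bases as the longest transcript for H60c and more for the other genes compared. No paired analysis was possible because the tumor numbers are unique across the groups. Hcst, with 14 to 77 counts, is the member that depth limits most.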

Other observations

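Without responder 5, the responder with the lowest summed NK cell and T cell markers, edgeR called 9 features, and these genes were named after their values were seen. Of the 9, 5 were higher in responders. Gzmb and Gzmc, granzymes of cytotoxic lymphocytes, had log2 fold changes of 1.72 (adjusted p = 0.030 in edgeR) and 1.87 (adjusted p = 0.039 in edgeR). Klrg1, an inhibitory receptor of mature NK and effector T cells, was at 1.98 (adjusted p = 0.039 in edgeR), and Tnfrsf9 (4-1BB), a costimulatory receptor of activated T and NK cells, at 0.75 (adjusted p = 0.030 in edgeR). Slpi, a protease inhibitor, was at 0.91 (adjusted p = 0.046 in edgeR). Lower in responders were the collagen VI genes Col6a1 at -0.47 and Col6a2 at -0.61, with Gdf3 at -1.74 and Agap1 at -0.27. None of the 9 genes is a member or in a list, and with all 10 tumors none of them had an adjusted p under 0.05 in edgeR. The DESeq2 test with all 10 tumors called Col6a1 (adjusted p = 0.043) and Col6a2 (adjusted p = 0.0042), with Nes and Flnc, all lower in responders.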
